A study of Mus musculus with 20 samples.

Results

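The genes of the ADAM proteins, the Prss serine proteases and the Tmprss serine proteases were followed through the cycle of the seminiferous epithelium in mouse testis. A gene was taken as a member where its probe set carried a single symbol that reads Adam, Prss or Tmprss followed directly by a digit, so that the Adamts genes were left out. This gave 89 genes of 19938 genes with a single symbol, each measured by 1 probe set. Of these, 72 passed the filter on low values and were tested, 8 were listed in all arrays but lay below the filter, and 9 were not listed in all arrays.

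The animals were male mice of a 129/C57BL6 background that carried both the RiboTag allele and the Cyp17iCre driver. RiboTag adds an HA epitope to a ribosomal protein in cells that express Cre, here Leydig cells, so that polysomes precipitated with an antibody against HA (the IP) can be set beside the homogenate they came from (total testis). All animals received WIN 18,446, which blocks retinoic acid synthesis, at 100 µg per g from day 2 after birth for 7 days, and then 200 µg of all-trans retinoic acid on day 9, and were killed 42 to 50 days later. Their tubules had then been synchronized to 5 windows of the cycle, named by their stages in roman numerals: XII-II/III, followed by II/III-VI and VI-VIII, then by VIII-X and X-XII. A single testis supplied both fractions of a time point, and each of the 10 groups (a window in a fraction) had 2 arrays, 20 in all; no group without Cre, without RiboTag or without synchronization was part of the comparisons. The source field of 1 total testis array (replicate 1) names X-II/III where its title has XII-II/III, and the title was used.

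ADAM proteins are membrane proteins with a disintegrin domain and a metalloprotease domain, which is inactive in many of them. In the testis, spermatids make a large set of ADAMs that form complexes on the sperm surface, such as fertilin (an ADAM1 protein with ADAM2) and the complexes around ADAM3 that sperm need to pass from the uterus into the oviduct. Elsewhere ADAM10 and ADAM17 cut the outer part off membrane proteins such as Notch receptors and growth factor precursors. The Prss genes of the testis encode serine proteases, or proteins of that fold without activity, of the acrosome and the surface of germ cells, and Tmprss proteins are serine proteases anchored in the membrane by their N-terminus.

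Promoters of 4 members are shown to set sequence beside the courses given below: the first 3 come from genes that were highest in stages II/III to VIII of total testis and hold the letters GTTGCCA, part of the motif bound by RFX factors; the last shows how alike a pair of neighbours is. The sequences come from RefSeq on build GRCm38.p6 and run 5′ to 3′ on the gene's strand from 250 bases before to 50 bases after its start. Capitals mark GTTGCCA, or TGGCAAC where the match lay on the other strand; in Adam6a they mark the 199 bases that are identical in Adam6b. In order they cover chr9:110844256-110844555 on the plus strand, chr8:43528088-43528387 and chr8:43703375-43703674 on the minus strand, and chr12:113543658-113543957 on the plus strand.
Prss46: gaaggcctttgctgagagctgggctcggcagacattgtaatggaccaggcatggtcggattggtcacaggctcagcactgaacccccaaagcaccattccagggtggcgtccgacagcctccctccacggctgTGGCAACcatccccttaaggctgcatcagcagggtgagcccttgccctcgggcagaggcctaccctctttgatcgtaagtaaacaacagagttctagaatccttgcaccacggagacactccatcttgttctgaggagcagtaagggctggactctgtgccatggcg
Adam26b: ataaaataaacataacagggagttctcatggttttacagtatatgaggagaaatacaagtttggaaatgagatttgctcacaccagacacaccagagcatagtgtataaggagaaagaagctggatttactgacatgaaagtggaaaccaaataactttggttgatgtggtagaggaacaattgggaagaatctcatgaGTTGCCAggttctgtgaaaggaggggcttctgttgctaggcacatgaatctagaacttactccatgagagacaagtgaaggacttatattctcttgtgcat
Adam34l: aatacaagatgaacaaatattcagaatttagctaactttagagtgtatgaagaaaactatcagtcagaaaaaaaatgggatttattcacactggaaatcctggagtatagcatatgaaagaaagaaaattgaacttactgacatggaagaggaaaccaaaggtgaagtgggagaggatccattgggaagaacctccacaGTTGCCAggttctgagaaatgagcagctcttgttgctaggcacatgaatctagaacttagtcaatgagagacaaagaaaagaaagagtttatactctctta
Adam6a: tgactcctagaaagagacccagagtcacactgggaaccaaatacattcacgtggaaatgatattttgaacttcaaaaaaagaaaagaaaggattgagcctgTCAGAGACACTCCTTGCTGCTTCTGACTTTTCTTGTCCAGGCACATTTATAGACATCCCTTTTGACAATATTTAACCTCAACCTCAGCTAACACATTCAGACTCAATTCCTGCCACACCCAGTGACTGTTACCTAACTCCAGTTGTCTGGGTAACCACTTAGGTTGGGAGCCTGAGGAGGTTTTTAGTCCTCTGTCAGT

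The members matched 69 promoter windows, of 58 of the 89 genes. GTTGCCA on either strand was found in 3 of these 69 windows (4.35%) and in 4.38% of 32851 windows of the whole table, so the members' share was that of the background and nothing is read from it. In Prss46 the match lay 117 to 111 bases before the start, and in Adam26b and Adam34l it lay 51 to 45 bases before the start in both. The Adam26b and Adam34l windows shared 216 of 286 aligned bases (75.5%), so their matches are not separate cases. Other letters searched on both strands were TGACGTCA, the cAMP response element, in 0 of 69 windows (1.79% of all windows), its shorter form TGACG in 14 (20.8%), AACAAT, a core of SOX sites, in 6 (10.7%), AAGGTCA, a site of orphan nuclear receptors, in 1 (4.72%) and TATAAA in 8 (13.6%). Such matches describe letters only and show no binding. The Adam25 and Adam20 windows shared 284 of 296 aligned bases (95.9%). Probe sets of such close copies (Adam6a and Adam6b; Adam26a, Adam26b, Adam34 and Adam34l; Adam20 and Adam25) may share signal, and their separate values are uncertain to that degree.

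The deposited values are intensities given as log2 below. They fell into 4 sets of 5 arrays (the first or second replicate of IP or of total testis, over all windows), and each set appeared to have been normalized by itself. The correlation between the arrays of a group was 0.981 to 0.994. The labels do not say that the 2 replicates of a window came from separate animals, so the p-values measure only the spread between these samples, which may be technical. Markers of Leydig cells with a probe set of a single symbol were higher in IP in 5 of 5 cases (Star, Cyp11a1, Cyp17a1, Hsd3b1 and Hsd17b3; median log2 difference 2.84), and those of spermatocytes and of round spermatids were each lower in 7 of 7. Sertoli cell markers were also higher in IP, in 5 of 6 tested cases (median 0.58), with a summed intensity of 11904 to 12257 over the window means of total testis and 19014 to 23238 in IP; of 6 tested spermatogonium markers 2 were higher and 3 lower, with sums of 4902 to 5343 and 11773 to 15397. Their part in the members' differences was not tested. In the whole fit 12005 of 15651 genes differed between IP and total testis at an adjusted p below 0.05, so that a call by itself says little, and the direction and size of a difference are what set a member apart.

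The first comparison asked which protease transcripts were higher in IP and which were higher in total testis. Sperm and germ cell ADAMs and testis Prss genes were lower in IP without exception among the 40 that were tested. These lists were chosen with earlier results of these data known, so the count describes them and is no independent support. Of 11 tested ADAMs that many tissues express, 8 were higher in IP, led by Adam23, Adam10 and Adam12. Among the other Prss and Tmprss genes Prss35, Prss8 and Tmprss13 were the most enriched. In limma's fit over all genes 64 of 72 tested members were called (76.7% of all genes were called), 21 as higher in IP (50.1% of all genes) and 43 as lower (26.6%). The median difference was -0.49 over members and 0.20 over all genes tested. A difference of at least 1 on the log2 scale was called upward in 8 members (18.1% of all genes) and downward in 27 (5.39%).

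**Figure D1:**
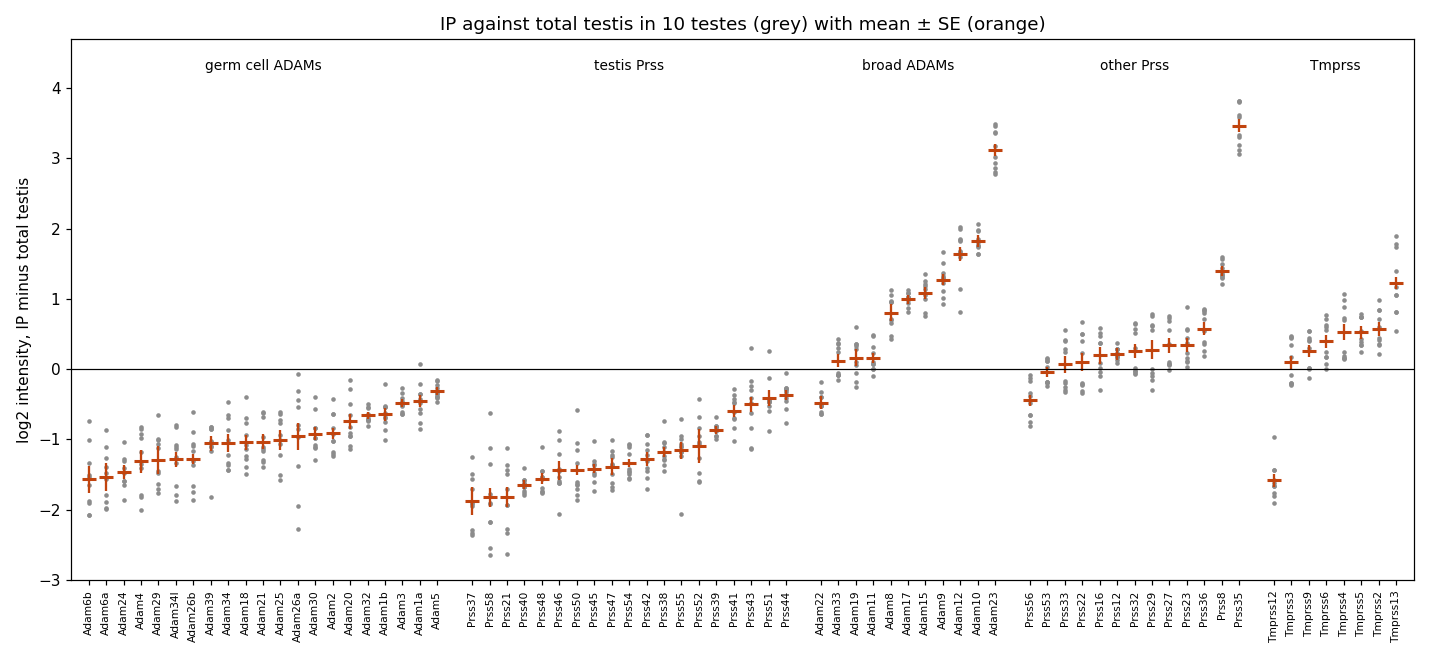
IP minus total testis in log2 intensity for the 72 tested members, by list. Grey points are the 10 pairs of an IP and a total testis array with the same window and replicate number. The orange mark with its bar is the mean ± SE of limma's fit. All 40 means of the 2 germ cell lists lie below 0, down to -1.88 in Prss37, while Prss35 (3.46) and Adam23 (3.12) stand highest.

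Prss35 encodes a serine protease homologue thought to lack activity. Its log2 intensity was 9.06 at the lowest, 9.48 at the median and 9.70 at the highest of the 10 total testis arrays, and 12.53, 12.94 and 13.26 in IP. The fractions did not overlap, as in 13 tested members with all IP arrays on top (32.8% of all genes). The difference was 3.46 ± 0.096 (SE, n = 10 arrays per fraction, limma adjusted p = 5.97e-15). The SEs of fraction differences here and below treat arrays of a set as independent and are likely too small.

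Adam23, an ADAM without protease activity that binds the secreted protein LGI1 in the brain, showed the same pattern. Total testis lay between 8.65 and 8.92 (median 8.73) and IP between 11.47 and 12.26 (median 11.89). The fractions stood apart in every window, by 3.12 ± 0.085 (SE, n = 10; 8.72-fold; limma adjusted p = 4.63e-15). Neither gene passed the test over windows in either fraction. The amplitude, which is the highest minus the lowest window mean, was 0.21 for Prss35 and 0.16 for Adam23 in total testis. In IP the window means ran from 12.76 to 13.04 for Prss35 and from 11.65 to 12.03 for Adam23.

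Both main sheddases were enriched. Adam10 lay between 9.99 and 10.30 in total testis (median 10.07) and between 11.64 and 12.22 in IP (median 11.92), a difference of 1.82 ± 0.081 (SE, n = 10; limma adjusted p = 2.19e-12). Adam17 lay between 9.87 and 10.09 (median 9.94) and between 10.73 and 11.07 (median 11.04), a difference of 1.00 ± 0.066 (limma adjusted p = 4.00e-10). Neither overlapped between fractions, and neither passed the test over windows in either fraction. Adam12, which can cut growth factor precursors and is made in growing muscle and bone, was 8.19 to 8.34 in total testis and 9.12 to 10.36 in IP (1.64 ± 0.10). Adam9 (1.27 ± 0.080) and Adam15 (1.08 ± 0.084), widely expressed ADAMs with active proteases, also lay higher in every IP array than in any total testis array. Adam8, an ADAM of leukocytes, was higher by 0.80 ± 0.115 with overlapping fractions, while the list of 8 macrophage markers had 2 genes higher and 6 lower in IP. Adam22, another ADAM without activity, was the only tested gene of its list called lower (-0.48 ± 0.097, limma adjusted p = 0.000286), a call that was lost with the 4 sets as a random block (adjusted p = 0.144).

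Prss8 encodes prostasin, a protease of epithelial membranes that activates sodium channels. It was 8.10 to 8.46 in total testis and 9.42 to 9.89 in IP, a difference of 1.40 ± 0.073 (limma adjusted p = 1.60e-11) with no overlap. Tmprss13, a membrane serine protease of skin and other epithelia, was 8.21 to 8.36 in total testis and 8.88 to 10.26 in IP (1.23 ± 0.080, limma adjusted p = 3.45e-10). Beside these, Prss35 and Tmprss12, 5 of the other Prss genes were higher by 0.22 to 0.58 and 5 Tmprss genes by 0.26 to 0.58, and 6 genes (5 Prss and Tmprss3) were not called. Prss56 was lower by 0.44 ± 0.083 (limma adjusted p = 0.000118). Prss16, Prss29, Prss32, Tmprss2 and Tmprss5 passed the filter on low values only through IP, all their total testis windows lying below its level of 8.20; 3 of these 5 (Prss32, Tmprss2 and Tmprss5) were among the genes called higher, a direction that the filter favours, and nothing is read from it.

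The small upward differences depended on how the 4 sets were scaled. After quantile normalization of all 20 arrays the median of all genes was -0.07 instead of 0.20, with 15 members called higher and 48 lower, and genes called higher made up 45.1% of all calls instead of 65.3%. After centring each array on its median it was -0.24, with 12 higher and 54 lower, members called higher made up 18.2% of the members called instead of 32.8%, and the share over all genes was 34.8%. The 4 sets also bear on the errors: with the set as a random block (correlation 0.636) 16 members were called higher (40.3% of all genes) and 35 lower (18.8%). Outside the germ cell lists 6 calls were lost with it, those of Adam11, Adam22, Prss12, Prss23, Prss32 and Tmprss9.

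Of the 43 members called lower in IP, 40 belonged to the germ cell lists, and the other 3 were Adam22, Prss56 and Tmprss12. All 21 tested sperm and germ cell ADAMs were lower in IP (median difference -1.03), and all 19 testis Prss genes were lower (median -1.34). The difference ran downward in all 10 pairs of arrays with the same window and replicate number for 37 of these 40 genes, a count not made over all genes. The labels do not say that the 10 pairs came from 10 separate testes. All IP arrays lay below all total testis arrays in 14 of the 40 (10.1% of all genes). With the random block 33 of the 40 kept their call. The 7 that lost it were Adam1a, Adam20, Adam26a, Adam29, Prss43, Prss51 and Prss52, with adjusted p up to 0.305 (Prss51). Germ cell transcripts remained measurable in IP: the summed intensity of 7 round spermatid markers was 13847 to 31814 in IP and 31778 to 58998 in total testis, over the window means. In bulk tissue fewer cells of a type and less RNA per cell cannot be told apart.

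Prss37 had the most negative difference. Its protein is an inactive protease homologue of the acrosome that sperm need for the processing of ADAM3. Total testis ranged from 10.55 to 13.37 (median 13.11) and IP from 8.19 to 12.12 (median 11.01). The fractions overlapped, and the difference was -1.88 ± 0.21 (SE, n = 10; limma adjusted p = 2.59e-07). Prss58 had nearly the same difference (-1.82 ± 0.14), again with overlap.

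Prss21 encodes testisin, a protease held on the sperm surface by a lipid anchor. It was 11.85 to 12.67 in total testis (median 12.39) and 9.54 to 11.16 in IP (median 10.64). All IP arrays lay below all total testis arrays, by 1.82 on average (-1.82 ± 0.14, limma adjusted p = 2.77e-09). Prss40, a serine protease of the acrosome, fell by 1.64 ± 0.067, from 11.17 to 11.55 in total testis to 9.44 to 9.98 in IP. Tmprss12, which sperm need to enter the oviduct, was the only Tmprss gene to fall (-1.58 ± 0.095, limma adjusted p = 1.09e-10), with 11.33 to 11.73 in total testis and 9.69 to 10.62 in IP. Prss48 was lower by 1.56 (-1.56 ± 0.080), from 10.95 to 11.66 to 9.39 to 9.97. None of these last 4 overlapped between fractions.

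The fertilin and ADAM3 genes had smaller differences. Adam3, which encodes cyritestin, was 13.63 to 13.80 in total testis and 13.06 to 13.46 in IP, a difference of -0.49 ± 0.057 (limma adjusted p = 5.47e-07). Adam2, the fertilin beta subunit, was 12.34 to 12.74 and 11.30 to 12.04 (-0.91 ± 0.080). Adam1b, the fertilin alpha subunit of the sperm surface, was 10.57 to 11.73 and 10.03 to 10.95 (-0.64 ± 0.098), and Adam1a, whose protein pairs with ADAM2 inside the cell, was 11.53 to 12.04 and 10.90 to 12.12 (-0.45 ± 0.091). Adam2 and Adam3 did not overlap between fractions, while Adam1a and Adam1b did, and Adam1a lost its call with the random block (adjusted p = 0.104). Adam5 differed by -0.32 ± 0.055. Adam3, Adam5 and Prss39 read 13.63 or more in every total testis array, while the brightest probe set of an array read 14.44 to 14.74; whether differences and amplitudes are compressed near the top of this range was not tested.

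The second comparison asked which members followed the stage of the cycle in total testis. Of the 40 tested germ cell members 24 did so, and the called members are described below by the window of their peak. A first course, of 13 genes, was highest in II/III-VI or VI-VIII and held 11 ADAMs, among them Adam8 of the broadly expressed list, with Prss46 and Prss54. A second, of 9 genes, was highest in VIII-X and lowest, in 8 of them, in II/III-VI; it held Prss37, Prss50, Prss51, Prss52, Prss55 and Prss58 with Adam4, Adam6a and Adam6b. In all, 26 of 72 tested members passed limma's F test over the 5 windows (18.4% of all genes), 23 with an amplitude of at least 1 on the log2 scale (8.74% of all genes) and 11 with at least 2 (1.73%). By list these were 13 of 21 sperm and germ cell ADAMs, 11 of 19 testis Prss genes, 2 of 11 broadly expressed ADAMs, and 0 of the 21 other Prss and Tmprss genes tested. The median amplitude was 1.60 for the first list and 1.14 for the second, against 0.28 over all genes tested. By peak window, 2 members peaked in XII-II/III (3.43% of all genes), 6 in II/III-VI (3.81%), 7 in VI-VIII (4.04%), 9 in VIII-X (4.43%) and 2 in X-XII (2.72%). A peak window is the highest mean and can be a near tie, as in Prss51, with 11.42 in VIII-X and 11.40 in X-XII. Peak windows were not tested against the others, and adjusted p-values for windows come from the F test.

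**Figure D2:**
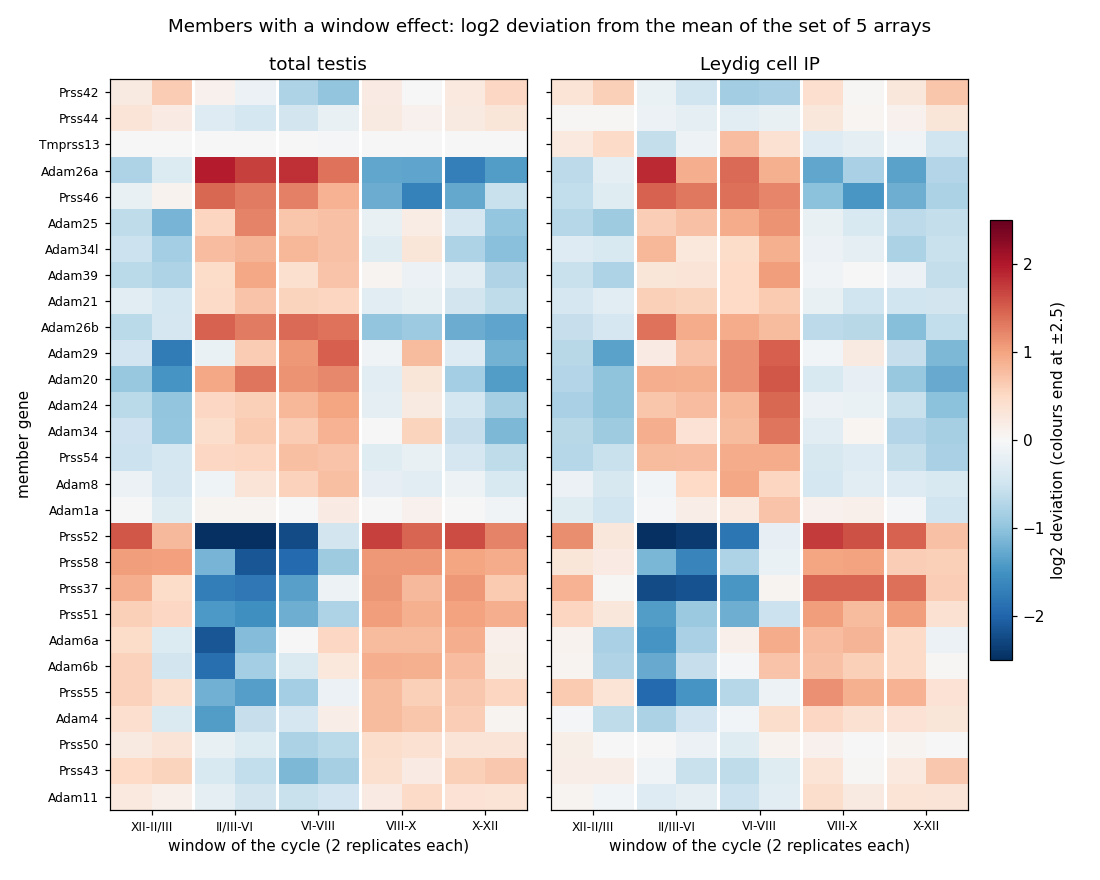
The 28 members that passed the F test over windows in total testis or in IP, ordered by peak window in total testis; each cell is the log2 deviation of an array from the mean of its set of 5 arrays (red higher, blue lower), with 2 replicates per window. The ADAMs from Adam26a to Adam34 are mostly red in II/III-VI and VI-VIII, and Prss52 to Adam4 are blue in II/III-VI and red in VIII-X and X-XII; in Tmprss13 and Prss50 the fractions look unlike.

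Prss52 changed more than any other member. In total testis its replicates read 13.08 and 12.59 in XII-II/III, 8.90 and 8.73 in II/III-VI, 9.30 and 11.32 in VI-VIII, 13.25 and 13.25 in VIII-X, and 13.16 and 13.02 in X-XII. The gene was thus near its top in 3 windows, deeply down in II/III-VI, and split between the replicates of VI-VIII. VIII-X exceeded the mean of the other 4 windows by 1.98 ± 0.42 (SE), and the amplitude of 4.43 is 21.6-fold (limma F test, adjusted p = 3.15e-05).

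Its neighbours on chromosome 14 ran beside it. Prss55, whose lipid-anchored protein sperm need to migrate into the oviduct, read 13.26 and 13.10, 11.47 and 11.33, 11.83 and 12.56, 13.45 and 13.29, and 13.35 and 13.23 over the windows from XII-II/III on. VIII-X exceeded the rest by 0.86 ± 0.22, and the limma F test over windows gave an adjusted p of 0.000184. Prss51 read 11.07 and 10.95, 9.03 and 8.90, 9.24 and 9.66, 11.50 and 11.33, and 11.47 and 11.34 (VIII-X over the rest 1.21 ± 0.19, and limma F test over windows, adjusted p = 3.86e-06). In both, all arrays of II/III-VI and VI-VIII lay below all arrays of the other 3 windows. Over the 10 total testis arrays, which share their libraries and their normalization, the deviations of the 3 genes from their set means correlated at r = 0.975 to 0.997.

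Prss37 read 13.19 and 13.03 in XII-II/III, 10.55 and 10.77 in II/III-VI, 10.91 and 12.45 in VI-VIII, 13.37 and 13.37 in VIII-X, and 13.36 and 13.22 in X-XII (amplitude 2.71, 6.54-fold; limma adjusted p = 0.00083). Prss58, which lies on chromosome 6 as Prss37 does, read 12.67 and 12.70, 10.46 and 9.55, 9.68 and 10.80, 12.72 and 12.77, and 12.62 and 12.60 (amplitude 2.74; limma adjusted p = 5.24e-06). Both had a trough from II/III-VI into VI-VIII and a plateau over the rest of the cycle, and r between them was 0.947 over the 10 total testis arrays.

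Adam6a and Adam6b, whose product forms complexes with ADAM2 and ADAM3 on sperm, also were highest in VIII-X and lowest in II/III-VI by their window means. Adam6a read 11.03 and 10.51, 8.43 and 9.78, 10.56 and 11.37, 11.37 and 11.66, and 11.49 and 10.98, and Adam6b 10.46 and 9.66, 7.99 and 9.28, 9.51 and 10.39, 10.79 and 11.01, and 10.64 and 10.27. II/III-VI was lowest in both, with its 2 replicates well apart, and the F test (limma adjusted p = 0.00469 and 0.00815) was lost without replicate 1 of that window (0.119 and 0.115). Adam4 lost its call without the same array (adjusted p = 0.202). Adam6a and Adam6b share promoter sequence, as printed, and may share probe signal (r = 0.979 over the 10 total testis arrays).

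The replicates of VI-VIII were not alike. All 9 members that peak in VIII-X were higher in replicate 2 than in replicate 1 of that window, by a median of 0.81 (0.07 to 2.02) in total testis, where the median of all genes was -0.02. In IP they were higher by a median of 0.91 (0.54 to 1.87), where the median of all genes was 0.30. Replicate 2 of VI-VIII was thus the higher of the 2 replicates for these genes in both fractions.

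The ADAM course was clearest in Adam26b, which together with Adam24, Adam25 and Adam34 belongs to the testases, ADAMs with an active metalloprotease made in the testis. It read 8.34 and 8.61 in XII-II/III, 10.47 and 10.32 in II/III-VI, 10.42 and 10.38 in VI-VIII, 8.01 and 8.13 in VIII-X, and 7.77 and 7.72 in X-XII. The 4 arrays of II/III-VI and VI-VIII lay more than 1 above all others and close together. The amplitude was 2.66, with the smallest adjusted p of the members in this comparison (limma, 3.41e-08), and the means of VIII-X and X-XII lay below the filter level of 8.20. Its neighbour Adam26a read 7.19 and 8.26, 9.93 and 10.32, 9.81 and 9.96, 6.66 and 7.29, and 6.27 and 7.20 (amplitude 3.39; limma adjusted p = 2.65e-05), with the replicates up to about 1 apart outside its 2 high windows; the other 3 windows lay below the filter level. Of the 26 members called in total testis, 4 (Adam25, Adam26a, Adam26b and Adam39) had a window below that level, where an amplitude is no measure of fold.

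Adam20 read 9.32 and 8.66, 11.24 and 11.48, 11.38 and 11.34, 9.98 and 10.43, and 9.42 and 8.74 (amplitude 2.37; limma adjusted p = 3.54e-06). Adam29 read 9.55 and 8.25, 9.87 and 10.64, 11.13 and 11.49, 9.95 and 10.80, and 9.72 and 8.81 (amplitude 2.41; limma adjusted p = 0.00462). Both encode ADAMs of the testis; Adam20 was high in II/III-VI and VI-VIII, while both VI-VIII replicates of Adam29 exceeded all its other arrays. Adam24, whose product is linked to the block against a further sperm at the egg membrane, had its peak in VI-VIII. That window lay 1.14 ± 0.18 above the others (limma F test over windows, adjusted p = 8.45e-05). Adam21, Adam25, Adam34, Adam34l and Adam39 completed the course, with amplitudes from 1.15 (Adam21) to 1.79 (Adam25). Adam8 was called in VI-VIII by a narrow margin (adjusted p = 0.0497) and lost its call in 15 of 20 fits that each left out an array.

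Prss46 and Prss54 were the Prss genes of this course. Prss46 read 11.57 and 11.89 in XII-II/III, 13.20 and 13.10 in II/III-VI, 13.03 and 12.66 in VI-VIII, 10.52 and 10.11 in VIII-X, and 10.49 and 11.24 in X-XII. The fall from VI-VIII to VIII-X was the steepest step, and VIII-X was lowest. The amplitude was 2.84 (7.15-fold; limma adjusted p = 1.28e-05). Prss54, a protease homologue linked to acrosome formation, had its peak in VI-VIII, 0.91 ± 0.11 above the other windows (limma F test over windows, adjusted p = 6.93e-06).

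**Figure D3:**
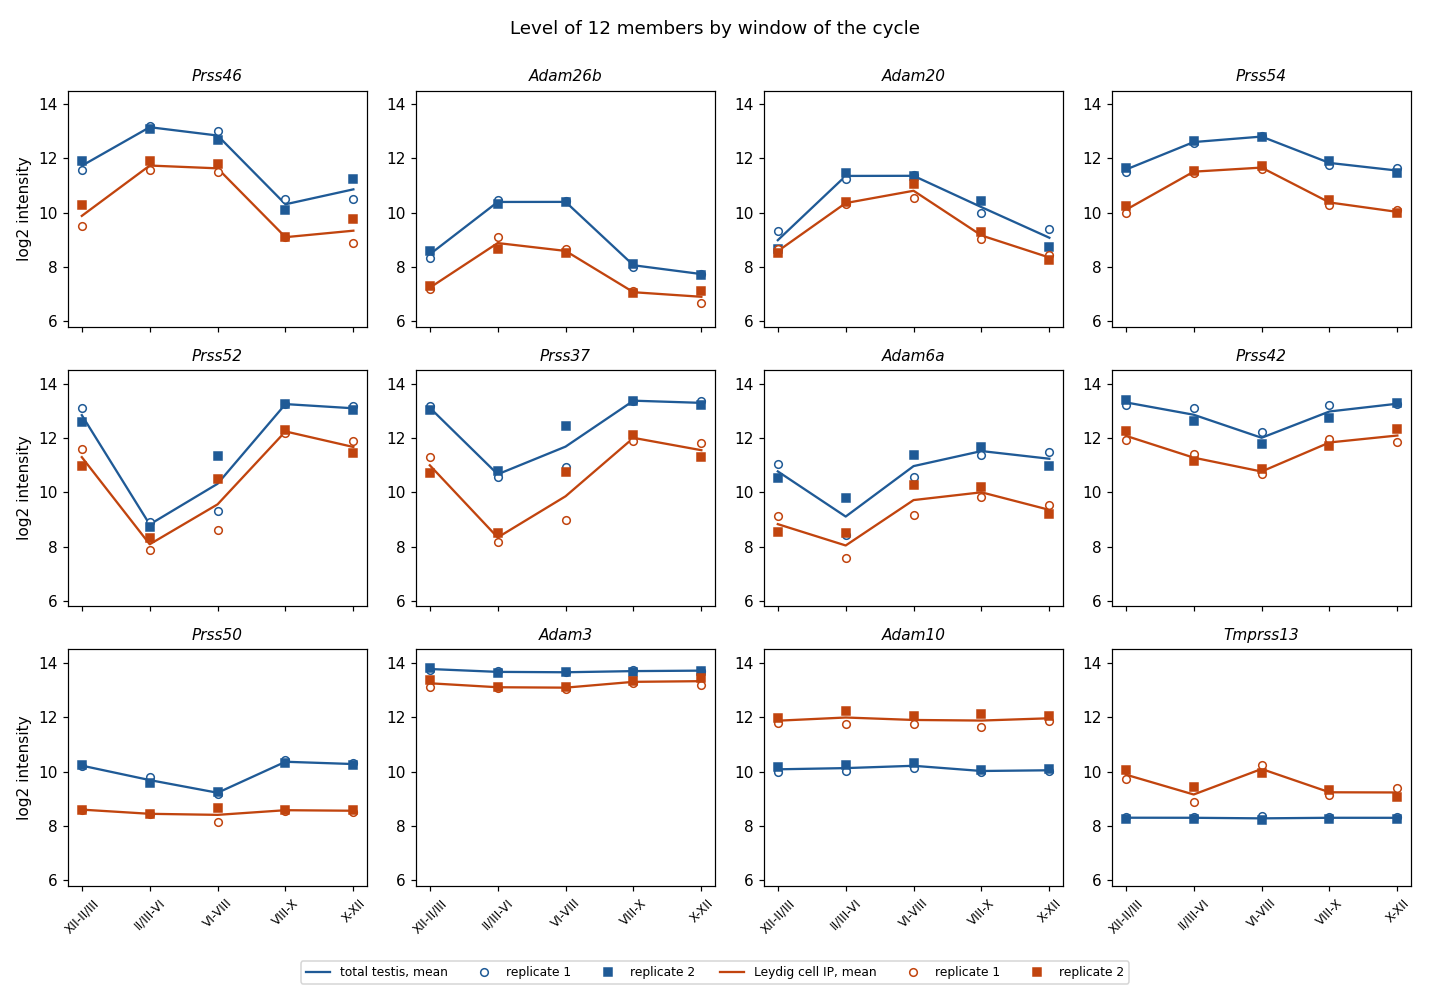
Log2 intensity of 12 members by window in total testis (blue) and IP (orange); open circles are replicate 1, filled squares replicate 2, lines join means. Prss46, Adam26b, Adam20 and Prss54 are high in II/III-VI and VI-VIII, Prss52, Prss37 and Adam6a are low in II/III-VI, Adam3 and Adam10 stay level, and the replicates of VI-VIII part in Prss52 (9.30 and 11.32 in total testis).

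A last small group had its highest mean in X-XII or XII-II/III, with VIII-X not far below. The VIII-X means were 12.97 in Prss42, 10.49 in Prss43 and 9.91 in Prss44, against peaks of 13.31, 10.82 and 10.01. Prss42 and Prss44 peaked in XII-II/III and Prss43 in X-XII, and the proteins of Prss42 and Prss43 are linked to the progress of meiosis. Prss42 read 13.22 and 13.40, 13.10 and 12.61, 12.23 and 11.78, 13.20 and 12.75, and 13.24 and 13.28 (amplitude 1.30; limma adjusted p = 0.00211). Its low window was VI-VIII, and without replicate 2 of that window in total testis the call was lost (adjusted p = 0.0545). Prss43 changed by 1.61 (limma adjusted p = 0.000352) and Prss44 by 0.65 (limma adjusted p = 0.00419). Adam11, a brain ADAM without activity, also had its highest mean in X-XII, nearly level with VIII-X (10.14 and 10.13). X-XII lay 0.44 ± 0.13 above the other windows (limma F test over windows, adjusted p = 0.00109).

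The remaining 16 of the 40 tested germ cell members did not pass the test in total testis, with amplitudes of 0.09 (Adam5) to 0.83 (Adam30). Among them were the fertilin and ADAM3 genes. Adam3 stayed between 13.63 and 13.80 in all 10 total testis arrays and had an amplitude of 0.12. Adam2 (0.31), Adam1a (0.26) and Adam1b (0.68, adjusted p = 0.0737) also missed the threshold, as did Prss21 (0.50), Prss39 (0.14), Prss40 (0.32) and Tmprss12 (0.33). A missed threshold with 2 arrays per window does not show that a level was constant.

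Members that lie next to each other in the genome were compared as a description. With at most 5 other protein-coding genes between neighbours, 56 members fell into 16 clusters. On chromosome 8, Adam24, Adam25, Adam20 and Adam39 correlated at 0.926 to 0.984 over the 10 total testis arrays, and Adam26b, Adam26a, Adam34l and Adam34 at 0.681 to 0.993; all 8 were called. Another cluster of that chromosome, Adam18, Adam3, Adam5, Adam32 and Adam9, held 0 called genes, with a median r of 0.70. Prss39 and Prss40 on chromosome 1, also not called, correlated at 0.896. In the cluster of 6 Prss genes on chromosome 9, 5 were called. They peaked in XII-II/III (Prss42, Prss44), X-XII (Prss43), II/III-VI (Prss46) and VIII-X (Prss50), some of them by near ties. In this cluster r ran from -0.835 (Prss46 with Prss50) to 0.961, with a median of 0.77. Adam4 and Adam21 on chromosome 12 opposed each other (r = -0.589), as did Adam1b and Adam1a on chromosome 5 (r = -0.646). For Tmprss4 and Tmprss13 on chromosome 9 r was -0.029, and the median r was 0.068 for Prss53, Prss8 and Prss36 on chromosome 7 and 0.30 for 6 Prss genes on chromosome 17. No comparison with other neighbouring genes was made. These correlations describe genes that share arrays, and close copies among them may share probe signal.

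**Figure D4:**
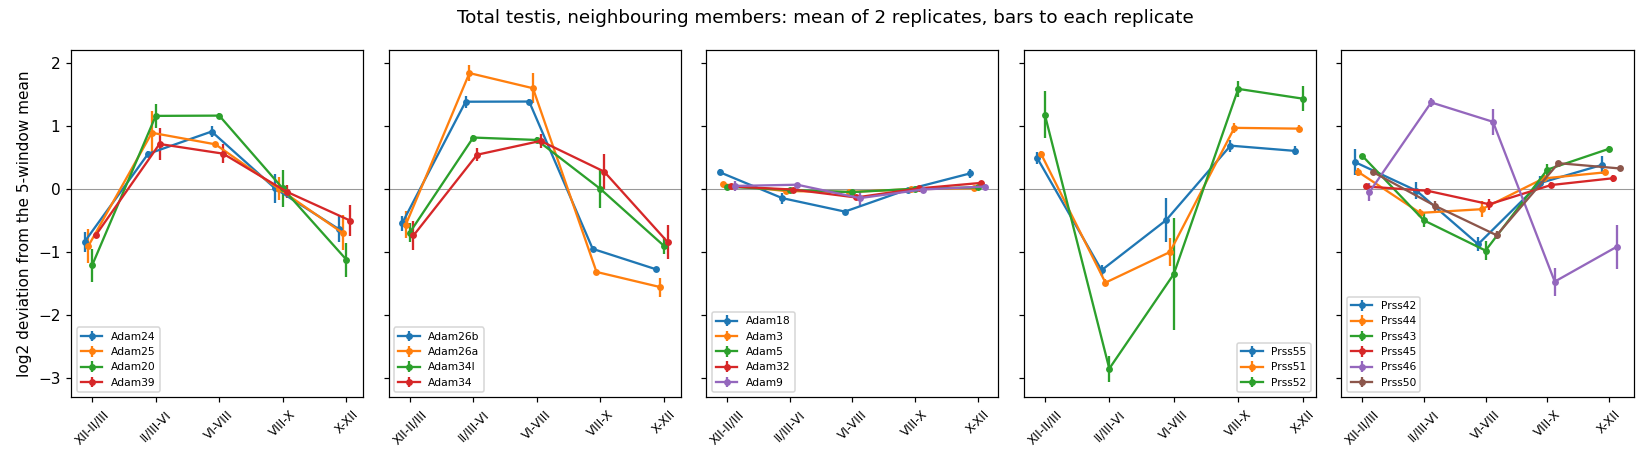
Total testis profiles of neighbouring members as log2 deviation from the 5-window mean; points are means of 2 replicates and bars reach each replicate. Genes of a panel run together in both panels led by Adam24 and Adam26b and in the Prss55 panel, stay near 0 in the Adam18 panel, and part in the Prss42 panel, where Prss46 is high in II/III-VI and low in VIII-X, against the other 5.

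Markers of spermatids changed over the same windows. The summed intensity of 7 round spermatid markers in total testis was 32626 in XII-II/III, 55377 in II/III-VI, 58998 in VI-VIII, 40564 in VIII-X and 31778 in X-XII. That of 7 elongating spermatid markers was 90971, 74049, 67341, 92149 and 93010. In the round spermatid list 3 of 7 genes passed the F test in total testis and 4 of 7 in IP, and in the elongating list 3 of 7 and 4 of 7. The first sum was highest in VI-VIII, within the high windows of the ADAM course. The second was low in II/III-VI and lowest in VI-VIII, while Prss37 was lowest in II/III-VI. The part of these markers in the members' courses was not tested.

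The third comparison asked whether members changed over the windows in IP as well, and whether that differed from total testis. Of the 24 germ cell members called in total testis, 19 were also called in IP. The F test was passed by 23 of 72 tested members (8.87% of all genes): 12 sperm and germ cell ADAMs, 8 testis Prss genes, 2 broadly expressed ADAMs and Tmprss13. Of these, 20 had an amplitude of at least 1 (5.47% of all genes) and 10 of at least 2 (1.32%). The peak was in VI-VIII for 11 (2.73% of all genes), in VIII-X for 6 (2.89%), in II/III-VI for 4 (1.88%), in X-XII for 2 (1.07%) and in XII-II/III for 0 (0.294%). Both fractions were called in 21 members (6.90% of all genes), 16 with the same peak window (5.03%). Over all genes 788 of the 1080 called in both fractions shared the peak window, a share close to that of the members. The median amplitude of these 21 members, picked by a call in each fraction, was 1.97 in total testis and 1.98 in IP. Over all tested genes of a list it was 1.60 and 1.35 for sperm and germ cell ADAMs, and 1.14 and 0.85 for testis Prss genes. When arrays were weighted by their quality 9 members were called in IP (2.6% of all genes) and 33 in total testis (37.9%). Of the 23 calls in IP 14 were lost with these weights, among them Prss52, Prss58, Adam26a, Adam29 and Adam6a. Of the 23 members called in IP, 9 had an IP window below the filter level of 8.20, where an amplitude is no measure of fold. Over the windows from XII-II/III on, the summed round spermatid markers in IP read 14016, 25475, 31814, 18029 and 13847. The summed elongating spermatid markers in IP read 68475, 48284, 47262, 77201 and 71266. Their part in the courses of members in IP was not tested.

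In IP the largest amplitude was again that of Prss52, 4.15 (limma adjusted p = 0.000208), a call that was lost with array weights. It read 11.60 and 10.98 in XII-II/III, 7.86 and 8.31 in II/III-VI, 8.62 and 10.49 in VI-VIII, 12.19 and 12.29 in VIII-X, and 11.90 and 11.43 in X-XII, with II/III-VI lowest and VIII-X highest in both fractions. Prss37 followed with 3.67 (limma adjusted p = 0.000209), from 8.19 and 8.49 in II/III-VI to 11.88 and 12.12 in VIII-X. Prss55 had 2.73 (limma adjusted p = 3.12e-05), from 9.42 and 10.22 to 12.51 and 12.59 in the same windows. Prss46 read 11.59 and 11.89 in II/III-VI and 9.10 and 9.11 in VIII-X (amplitude 2.64, limma adjusted p = 1.64e-05), with its high and low windows where they lay in total testis.

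The ADAMs of the II/III-VI to VI-VIII course had amplitudes in IP of 2.46 in Adam20, 2.44 in Adam26a, 2.33 in Adam29, 2.03 in Adam24 and 1.98 in Adam26b, each called in the main fit. With array weights the calls of Adam26a and Adam29 were lost. Adam20 read 8.68 and 8.50, 10.33 and 10.39, 10.56 and 11.06, 9.03 and 9.30, and 8.46 and 8.25. In Adam26a the replicates of II/III-VI parted in IP (9.39 and 8.04), which they did not in total testis (9.93 and 10.32). The call of Adam29 was lost without replicate 2 of VI-VIII in IP (adjusted p = 0.0581), and that of Adam6a (adjusted p = 0.0382) was lost in 7 of 20 fits that each left out an array. Prss58 (2.39) and Prss51 (2.08) kept the VIII-X peak.

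**Figure D5:**
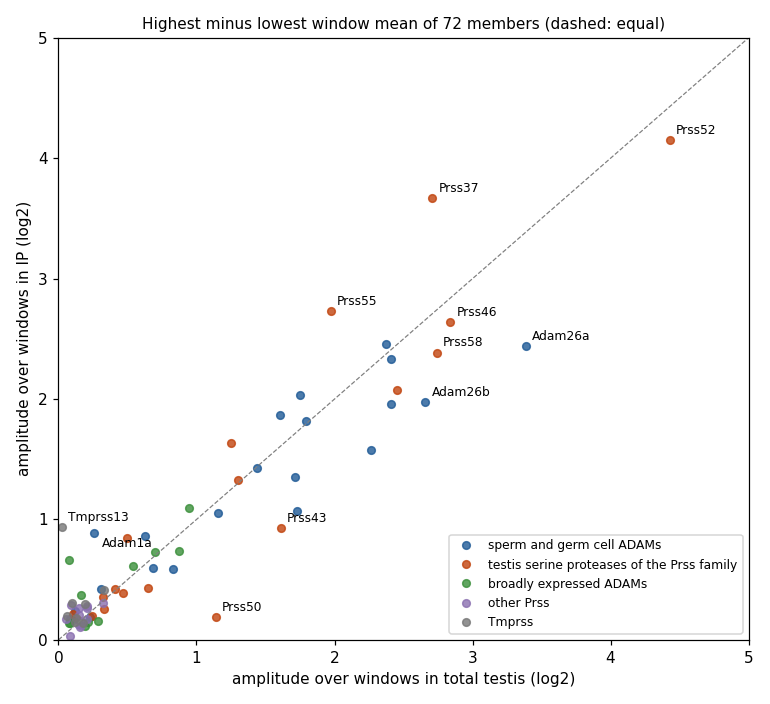
Amplitude over the 5 windows (highest minus lowest window mean, log2) in total testis against IP for the 72 tested members, coloured by list; the dashed line marks equal values. Most germ cell members lie near the line up to Prss52 (4.43 and 4.15), Prss50 lies below it (1.14 and 0.19) and Tmprss13 above it (0.02 and 0.94).

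The interaction of window and fraction was passed by 0 of 72 tested members in limma's fit (0.0511% of all genes), with 4 at an unadjusted p below 0.05 (4.43% of all genes): Adam26b, Prss50, Prss58 and Tmprss13. Prss50, a testis protease homologue, read 10.20 and 10.25, 9.79 and 9.59, 9.19 and 9.26, 10.42 and 10.31, and 10.31 and 10.26 in total testis (limma adjusted p = 0.000114). In IP it stayed between 8.14 and 8.68 in all 10 arrays (amplitude 0.19, adjusted p = 1). These values lie close to the filter level of 8.20, which leaves little room to see a decrease. Whether Prss50 looked level in IP for this reason was not tested. Its interaction had an adjusted p of 0.205, and of 0.0374 when the 4 sets entered the fit as a block, where Prss50 was the 1 member called (2.31% of all genes); after median centring it was again the 1 member called (adjusted p = 0.04; 1.32%). Tmprss13 showed the reverse: it lay between 8.21 and 8.36 in total testis, while IP read 9.73 and 10.05, 8.88 and 9.44, 10.26 and 9.94, 9.16 and 9.32, and 9.39 and 9.08. In IP VI-VIII lay 0.72 ± 0.14 above the other windows (limma F test over windows, adjusted p = 0.00292). Its 2 high windows, XII-II/III and VI-VIII, do not adjoin, its interaction had an adjusted p of 0.353, and with the IP arrays fitted alone the window call was lost (0.0719). In total testis Tmprss13 also lay close to the filter level, and the part of this in its level course there was not tested. Adam1a was called in IP only (adjusted p = 0.0478) and lost that call in 14 of 20 fits that each left out an array.

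Genes that act with these proteases were taken from lists, to be read against the 50.1% of all genes called higher in IP, the 26.6% called lower and the 18.4% called over windows in total testis. Of 13 tested genes for ADAM3 maturation and sperm migration, 11 were lower in IP and 1, the sulfotransferase Tpst2, was higher (1.05 ± 0.09). The windows called 2 of them in total testis: Calr3, a testis chaperone for ADAM3, peaked in VIII-X (amplitude 2.58, limma adjusted p = 0.00019), and Pdilt, its partner, in VI-VIII (2.02, limma adjusted p = 0.00058). All 9 tested genes of the acrosomal protease system were lower in IP, and 3 (Izumo1, Spaca4 and Spaca6) were called over windows in total testis. Of 24 tested regulators and substrates of ADAM10 and ADAM17, 16 were higher in IP and 2 lower. The inhibitor Timp1 (2.85 ± 0.09), the ADAM10 partner Tspan15 (2.64 ± 0.09) and Rhbdf1 (2.19 ± 0.07), which carries ADAM17 to the surface, led them. Among 6 tested genes of the serine protease inhibitor list, Serpina5 was higher by 1.52 ± 0.06 and Spink2 lower (-1.29 ± 0.09).

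The 17 members without a test were Adam7 and Adam28, Prss2, Prss3, Prss28, Prss30, Prss34 and Prss57, Tmprss7, Tmprss15, and the 7 genes Tmprss11a to Tmprss11g. Several are known from other tissues, such as Adam7 from the epididymis and Tmprss15, the enteropeptidase, from the gut. Their highest array read 6.25 to 8.47, and the filter lay at 8.20. All 7 genes of the Tmprss11 cluster on chromosome 5 were listed only in part of the arrays. Of 6 epididymal markers 5 had a probe set, and 0 of these passed the filter. A further 4 probe sets named a member together with other genes (Prss1 and Prss3 in 2 of them, the Adam26 and Adam34 copies in 1 and Adam4 in 1) and were not used.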

How the data were processed

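Total testis RNA and Leydig cell IP RNA of synchronized mouse testes were measured on GeneChip ST 1.0 arrays. The authors deposited linear intensities per probe set after RMA, a step the submitters' processing notes name; software, version and genome build are not given in the sources used here. From equal values within sets of 5 arrays (8.38% to 13.5% of value pairs), the authors' intensities appear to form 4 separately normalized sets, with 23528 to 28856 probe sets listed. The number of arrays, 2 per group, limits the precision.

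Intensities were taken as log2. Of 28856 probe sets 21789 carry 1 symbol, and of several per gene the one with the highest mean was used. Genes listed in all 20 arrays with a group mean above the 25th percentile (8.20) were tested, 15651 in all. limma 3.58.1 in R 4.3.3 fitted 10 group means with eBayes, leaving 10 residual degrees of freedom. Contrasts were IP minus total testis over the 5 windows, moderated F tests over windows within each fraction, and the interaction; two-sided p-values were adjusted by Benjamini-Hochberg over all genes tested, with a threshold of 0.05. SEs of IP against total testis treat arrays of a set as independent and are likely too small, so a random set block was also fitted. The code was tested on simulated data with 200 changed genes.

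The labels state that a single testis gave both fractions. Arrays of the same window and replicate number were paired on this basis and deviated together (r = 0.158 to 0.359 over genes in the 5 windows). With the pair as a block 63 members were called, 20 higher and 43 lower (7838 and 4202 of all 15651 genes). Only Adam11 lost its call.

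Members and lists were chosen with earlier results of these data known. Values per array are given for the 8 members with the highest and the 8 with the lowest called fraction difference, the 12 with the largest amplitudes in each fraction, the fertilin, sheddase and sperm migration genes, and up to 3 genes of each other list; values of other members (such as Prss42, Prss50 and Prss54) were added after they were seen. Alternatives were other scaling, filters, probe set rules, blocks, array weights, single fractions and leaving out each array. Promoter windows came from RefSeq (GRCm38.p6), and figures were drawn with matplotlib 3.10.9.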

Additional observations from a re-analysis of the deposited data

Results flagged for a closer look

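The course of Prss50 over the windows differed between the fractions in a test of that difference under 2 alternative settings. The interaction had a limma adjusted p of 0.0374 with the 4 sets as a block (2.31% of all genes were called) and of 0.04 after median centring (1.32%), against 0.205 in the fit of the report. In total testis its window means differed by 1.14 on the log2 scale, and in IP by 0.19. Its IP arrays read 8.14 to 8.68, close to the filter level of 8.20, which leaves little room to see a decrease. Whether this shaped the difference between the fractions was not tested.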

How the results depend on the processing

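Leaving out each array in turn left 61 to 65 members called between IP and total testis, 18 to 22 as higher and 43 to 43 as lower in IP, 23 to 28 over windows in total testis, 21 to 24 over windows in IP and 0 to 0 in the interaction. Over all 15651 genes these fits called 11673 to 12308 between fractions, 7443 to 8278 as higher and 3976 to 4380 as lower. They called 2187 to 3181 over windows in total testis, 1215 to 1578 in IP and 1 to 27 in the interaction. Of the 64 calls between fractions 61 held in all 20 of these fits, of the 26 in total testis 21 and of the 23 in IP 19. Fewer single calls held in all the other settings that tested them. These were 47 of the 64 between fractions, 25 of the 26 in total testis and 8 of the 23 in IP. Other settings moved few counts by more than 1.5 times: members higher in IP numbered 12 after median centring and 13 with a filter at the 50th percentile, which tested 53 members, members called over windows in IP numbered 9 with array weights, and the interaction called 1 member after median centring and 1 with the set block.

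The replicate numbers within a fraction mark the sets that appear to be separately normalized. With this replicate block 29 members were called over windows in total testis (36.7% of all genes) and 25 in IP (19.2%), Adam6a losing its call in IP (adjusted p = 0.0665). Same-numbered arrays of different windows did not all deviate together (median r 0.23 in IP and 0.04 in total testis). Other values did show a set effect. The random set block had a correlation of 0.636. The median over all genes of replicate 2 minus replicate 1 was 0.21 to 0.30 in the IP windows. In the total testis windows it was -0.03 to -0.02. The block was kept as an alternative, and the window calls of the main fit do not account for the sets.

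Small differences between fractions changed sign with the scaling, through the shift of all genes given with the first comparison. After median centring they were -0.27 in Adam11, -0.28 in Adam19, -0.32 in Adam33, -0.22 in Prss12, -0.24 in Prss16, -0.34 in Prss22, -0.091 in Prss23, -0.10 in Prss27, -0.19 in Prss32, -0.37 in Prss33, -0.34 in Tmprss3, -0.044 in Tmprss6 and -0.18 in Tmprss9. After quantile normalization they were -0.26 in Adam11, -0.18 in Adam33, -0.029 in Prss27, -0.18 in Prss33, -0.10 in Tmprss3 and -0.027 in Tmprss9. In replicate 1 alone Prss32 was at -0.032. Arrays cannot show absolute levels, and a probe set near the filter of 8.20 gives little room to see a decrease.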
